A study of Mus musculus with 16 samples.

Results

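Chemokines and their receptors were followed in ascending aorta and in aortic valve tissue from mice that carry either both elastin alleles or only 1 working allele. The members were all probe sets that the platform annotation gives to 1 gene named as a CC or CXC chemokine ligand (Ccl, Cxcl) or as a receptor of either class (Ccr, Cxcr). They numbered 69 of the 45037 probe sets tested and stood for 45 genes, of which 31 encode ligands and 14 encode receptors. A single probe set read 29 of the genes, and 16 genes had several, up to 5 for Ccr9. The arrays were Affymetrix whole-genome mouse arrays, 16 in all, with 4 for each genotype (Eln+/+ and Eln+/-) in each of the tissues. All mice were 30 days old. Eln+/- mice have 1 inactive allele of Eln, the gene of elastin, in every cell, and the valve specimens held cusp, annulus and root together. Each specimen was kept separate, and its RNA was amplified from a small amount before it was labelled.

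Chemokines are small secreted proteins that bind to matrix sugars and draw leukocytes and some progenitor cells along a gradient. Their receptors sit in the cell membrane and signal through G proteins, and most of them bind several ligands, while Cxcl12 and Cxcr4 form a pair that also acts in blood vessel growth and in the development of the heart. Monocyte attractants such as Ccl2 are known from diseased arteries and valves, where they bring in Ccr2-positive monocytes.

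A value is the log2 ratio of a probe set's signal on 1 array to its own median over the 16 arrays, so 0 is the middle array and 1 is a doubling. The ratios hold no signal level, and the levels of different genes were not compared. No probe set was removed for a low value. In 14 members (20.3%, against 11.7% of all probe sets) the median ratio was below 1, as if a floor had stood in for a lower median, and the lowest was 0.419, for Cxcl5. In these members 0 is not the middle array. Cxcl11 (1419697_at), Ccr2 (1421188_at), Ccr9 (1427419_x_at) and Cxcr6 (1422812_at) were among them. The SD over the 16 arrays had a median of 0.320 in the members and 0.314 in all probe sets, so chemokine genes varied about as much as the rest of the array.

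The arrays had median ratios of 0.957 to 1.00. Eln, by its probe set of highest SD, ranged from 0.05 to 0.48 in aorta Eln+/+, from -0.64 to 0.13 in aorta Eln+/-, from -1.19 to 0.04 in valve Eln+/+ and from -2.62 to -0.81 in valve Eln+/-. High Xist with low Y-linked signal was found on all 4 arrays of each Eln+/- group and on 1 of 4 arrays in each Eln+/+ group, so this signal overlaps with the genotype. Aorta Eln+/- replicate 2 stood apart: the mean of 15 T cell and thymocyte markers was 1.52 there, and Rag1, a recombinase of developing lymphocytes, reached 5.06. Replicate 4 of the same group had 0.63 for those markers and 3.15 for Rag1, and the other 6 aorta arrays had marker means between -0.12 and 0.06. The mean of 19 macrophage markers was 0.98 in aorta Eln+/- replicate 2 and lay between -0.91 and -0.15 on the other 7 aorta arrays. All specimens are bulk tissue, in which fewer cells of a type and less RNA per cell cannot be told apart.

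The first question was where the chemokine system differs between the 2 tissues, valve minus aorta, averaged over the genotypes. Cxcr4 and its ligand Cxcl12 were both higher in the valve, as were the monocyte attractants Ccl12 and Ccl2 and the thymic chemokine Ccl25, while the eosinophil attractant Ccl11 was lower. These 6 probe sets of 6 genes were the ones that passed an adjusted p of 0.05 (limma, Benjamini-Hochberg over all probe sets), 5 higher and 1 lower. They make up 8.70% of the members, against 8.04% of all probe sets (4.4% higher, 3.64% lower), so the share was near the background. Of the 69 members 43 were higher and 26 lower in the valve, with a median difference of 0.08 against -0.04 over all probe sets.

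The promoters of the 3 genes with the lowest p in this comparison are shown first, since the results below turn on them. Each is RefSeq sequence of GRCm38.p6, 250 bases before and 50 bases after the gene's start, written 5′ to 3′ on the gene's own strand. Capitals mark TATAAA, searched on both strands, and in Cxcr4 a match on each strand overlaps. Cxcr4 lies at chr1:128592250-128592549 (minus strand), Cxcl12 at chr6:117168285-117168584 (plus strand) and Ccl12 at chr11:82101595-82101894 (plus strand).
Cxcr4: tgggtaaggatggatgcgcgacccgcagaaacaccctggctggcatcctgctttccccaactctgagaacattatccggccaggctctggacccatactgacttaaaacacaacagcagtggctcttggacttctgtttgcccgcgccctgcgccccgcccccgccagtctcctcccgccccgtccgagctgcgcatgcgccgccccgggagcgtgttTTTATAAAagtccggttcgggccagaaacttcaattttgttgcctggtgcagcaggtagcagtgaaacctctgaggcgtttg
Cxcl12: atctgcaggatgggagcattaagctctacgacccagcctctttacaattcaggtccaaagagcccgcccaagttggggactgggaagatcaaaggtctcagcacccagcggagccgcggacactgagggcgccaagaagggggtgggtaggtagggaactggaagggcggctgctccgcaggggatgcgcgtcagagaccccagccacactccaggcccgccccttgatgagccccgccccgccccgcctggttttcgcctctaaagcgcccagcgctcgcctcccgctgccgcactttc
Ccl12: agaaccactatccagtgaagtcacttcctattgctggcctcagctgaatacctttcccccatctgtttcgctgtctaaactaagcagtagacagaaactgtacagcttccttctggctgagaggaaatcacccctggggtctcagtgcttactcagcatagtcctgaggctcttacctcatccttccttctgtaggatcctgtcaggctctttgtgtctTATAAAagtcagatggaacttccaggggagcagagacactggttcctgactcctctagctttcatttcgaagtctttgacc

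The TATAAA match began 30 bases before the start in Cxcr4 on the gene's strand and 31 bases before it in Ccl12, and the Cxcl12 window held none. Promoters in the table matched 32 of the 45 genes, with 36 windows in all, and 9 of these held TATAAA against 13.6% of the 32851 windows in the table. ACGTG, the core of the hypoxia response element, was in 4 of the 36 and in 19.6% of all windows, also on both strands. The NF-kappaB consensus was in 9 of the 36, among them those of Cxcl1, Cxcl2, Cxcl3, Cxcl10, Ccl9 and Ccl20, and in 4.51% of all windows. Of the 6 genes that passed, windows were at hand for Cxcr4, Cxcl12, Ccl12 and Ccl25, and none of these 4 held that consensus. These are matches of letters only.

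Cxcr4 is the receptor for Cxcl12 and guides blood cells, endothelium and progenitor cells. Its log2 values (probe set 1448710_at) on replicates 1 to 4 were -2.85, -1.86, -3.28 and -1.73 in aorta Eln+/+ and -1.36, 0.03, -1.91 and -0.92 in aorta Eln+/-. In the valve they were 0.65, 0.44, 0.80 and 1.15 in Eln+/+ and -0.03, 0.39, 0.76 and 0.64 in Eln+/-. Every aorta array but 1 lay below every valve array, and the exception was aorta Eln+/- replicate 2, which lay just above the lowest valve array. Averaged over the genotypes the valve was higher by 2.34 ± 0.27 (SE) on the log2 scale, 5.05-fold, with an adjusted p of 7.25e-05 (limma). In Eln+/+ the difference was 3.19, a 9.14-fold rise with no overlap of the groups (adjusted p = 0.000868, limma), and in Eln+/- it was 1.48, 2.79-fold with overlap (adjusted p = 0.0333, limma). Without 1 array, the Eln+/- call ended for 6 of the 16 arrays (aorta Eln+/- replicates 1, 3 and 4 and valve Eln+/- replicates 2, 3 and 4), with adjusted p-values up to 0.105, and also in a fit of the Eln+/- arrays alone (adjusted p = 0.0637, limma).

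Cxcl12 is made by fibroblasts, endothelium and other stromal cells and holds Cxcr4-positive cells in place. Its probe set 1417574_at read -0.82, -0.90, -1.21 and 0.27 in aorta Eln+/+ and -1.19, -1.80, -0.39 and -0.32 in aorta Eln+/-. In valve Eln+/+ it read -0.0036, 0.0036, 0.08 and 0.26, and in valve Eln+/- 0.23, 0.51, 0.95 and 0.77. Aorta Eln+/+ replicate 4 was the 1 aorta array that reached the valve values. The valve was higher by 1.15 ± 0.23 (SE), 2.21-fold (adjusted p = 0.00559, limma). The rise was 1.54 in Eln+/-, where the groups did not overlap (adjusted p = 0.0108, limma), and 0.75 in Eln+/+ (adjusted p = 0.380, limma). The 2 other Cxcl12 probe sets differed by 0.26 and 0.27, with adjusted p-values of 0.369 and 0.386 (limma), so the call rests on 1 of 3 probe sets.

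**Figure D1:**
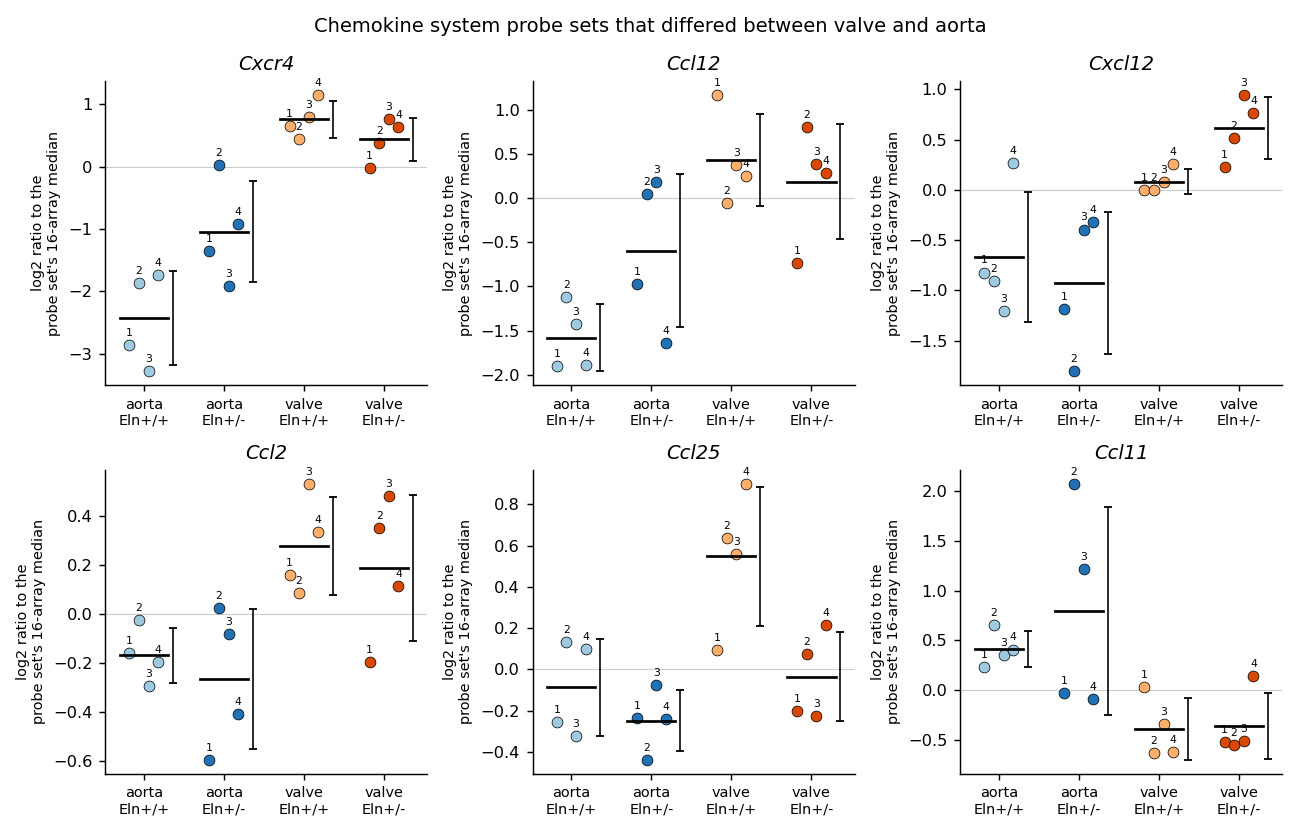
Log2 ratio to the median array on each of the 16 arrays for the probe sets past the threshold in the tissue comparison; points are arrays with their replicate numbers, lines are group means and bars are SDs (n = 4). Cxcr4 shows the widest gap between aorta and valve, and Ccl11 is the gene with the aorta above the valve.

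The 4 monocyte attractants, Ccl2, Ccl7, Ccl8 and Ccl12, were all higher in the valve, with a median difference of 0.57, and 2 of them passed. Ccl12 is a mouse chemokine that acts on Ccr2. Its values (1419282_at) were -1.90, -1.12, -1.42 and -1.89 in aorta Eln+/+ and -0.97, 0.05, 0.18 and -1.64 in aorta Eln+/-. They were 1.17, -0.05, 0.38 and 0.25 in valve Eln+/+ and -0.73, 0.81, 0.39 and 0.29 in valve Eln+/-. The Eln+/+ groups did not overlap, and the Eln+/- groups did, with aorta replicates 2 and 3 inside the range of the valve. Averaged over the genotypes, Ccl12 was higher in the valve by 1.40 ± 0.28 (SE), 2.64-fold (adjusted p = 0.00582, limma). In Eln+/+ the rise was 2.02, 4.05-fold (adjusted p = 0.0231, limma), and that call ended when aorta Eln+/+ replicate 1, 3 or 4 or valve Eln+/+ replicate 1, 3 or 4 was left out (highest adjusted p 0.0956).

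Ccl2, the main attractant of Ccr2-positive monocytes, was the other to pass (1420380_at). It read -0.16, -0.03, -0.29 and -0.20 in aorta Eln+/+, -0.59, 0.02, -0.08 and -0.41 in aorta Eln+/-, 0.16, 0.09, 0.53 and 0.33 in valve Eln+/+ and -0.20, 0.35, 0.48 and 0.11 in valve Eln+/-. The Eln+/+ groups were apart, and in Eln+/- only valve replicate 1 fell among the aorta values. The rise of 0.45 ± 0.12 (SE), 1.36-fold, had an adjusted p of 0.0324 (limma). Leaving out any 1 of 9 arrays ended the call (aorta Eln+/+ 1, 3 and 4, aorta Eln+/- 1 and 4, valve Eln+/+ 3 and 4, valve Eln+/- 2 and 3), with adjusted p-values up to 0.0720. Ccl8 differed by 0.69 (adjusted p = 0.0708, limma) and Ccl7 by 0.28 (adjusted p = 0.390, limma). Ccr2, the receptor of Ccl2 and Ccl12, had 4 probe sets with differences of 0.28, 0.64, 0.58 and 0.10, and none of the 4 passed.

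Most macrophage markers were, like the monocyte attractants, higher in the valve, and whether both varied together from array to array was not tested. Of 19 macrophage markers measured 16 were higher in the valve, with a median difference of 0.53, and Aif1 and C1qb passed. The array means of the list lay between -0.45 and -0.15 in aorta Eln+/+, between -0.91 and 0.98 in aorta Eln+/-, between -0.14 and 0.44 in valve Eln+/+ and between 0.14 and 0.46 in valve Eln+/-. With that mean as a covariate in limma, 2210 of all probe sets passed, against 3620 without it. Ccl12 then differed by 0.97 (adjusted p = 0.0576), Ccl2 by 0.28 (adjusted p = 0.238) and the thymic chemokine Ccl25 by 0.45 against 0.42 (adjusted p = 0.110), and none of the 3 passed. Cxcr4 (1.99), Cxcl12 (1.42) and Ccl11 (-1.51) still did in the mean over the genotypes. A probe set of Ccr9 (1427419_x_at) newly passed there as lower. In Eln+/+ 1 member was then called higher and 1 lower, and in Eln+/- 1 was called higher and 2 lower. Within 1 genotype, Ccl12 in Eln+/+ (1.54 against 2.02; adjusted p = 0.0919, limma) and Cxcr4 in Eln+/- (1.18 against 1.48; adjusted p = 0.0819, limma) no longer passed with that covariate, while Ccl11 in Eln+/- passed as lower (-1.62; adjusted p = 0.00184, limma).

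Ccl11, eotaxin, draws eosinophils through Ccr3 and was the member that fell. Its values (1417789_at) were 0.24, 0.66, 0.35 and 0.41 in aorta Eln+/+, -0.03, 2.08, 1.22 and -0.09 in aorta Eln+/-, 0.03, -0.63, -0.35 and -0.62 in valve Eln+/+ and -0.52, -0.55, -0.51 and 0.14 in valve Eln+/-. The Eln+/+ groups were apart, with the aorta higher, and in Eln+/- valve replicate 4 lay above aorta replicates 1 and 4. The valve was lower by 1.97-fold, a log2 difference of -0.98 ± 0.26 (SE; adjusted p = 0.0298, limma). The call ended without any 1 of 8 arrays (aorta Eln+/+ 2 and 3, aorta Eln+/- 3, valve Eln+/+ 2 and 4, valve Eln+/- 1, 2 and 3), with adjusted p-values up to 0.0638. In the order of the genes on chromosome 11 of GRCm38.p6, Ccl2, Ccl7, Ccl11, Ccl12, Ccl8 and Ccl1 follow each other with 0 other protein-coding genes between them, so Ccl11, which fell, lies between Ccl2 and Ccl12, which rose. The other attractants of eosinophils and Th2 cells, Ccl1, Ccl17, Ccl22 and Ccl24, differed by -0.09, 0.19, 0.04 and -0.03, and none passed. Ccr3, the receptor of Ccl11 and Ccl24, differed by -0.19 (adjusted p = 0.364, limma), and Ccr4, the receptor of Ccl17 and Ccl22, by -0.32 (adjusted p = 0.0581, limma).

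**Figure D2:**
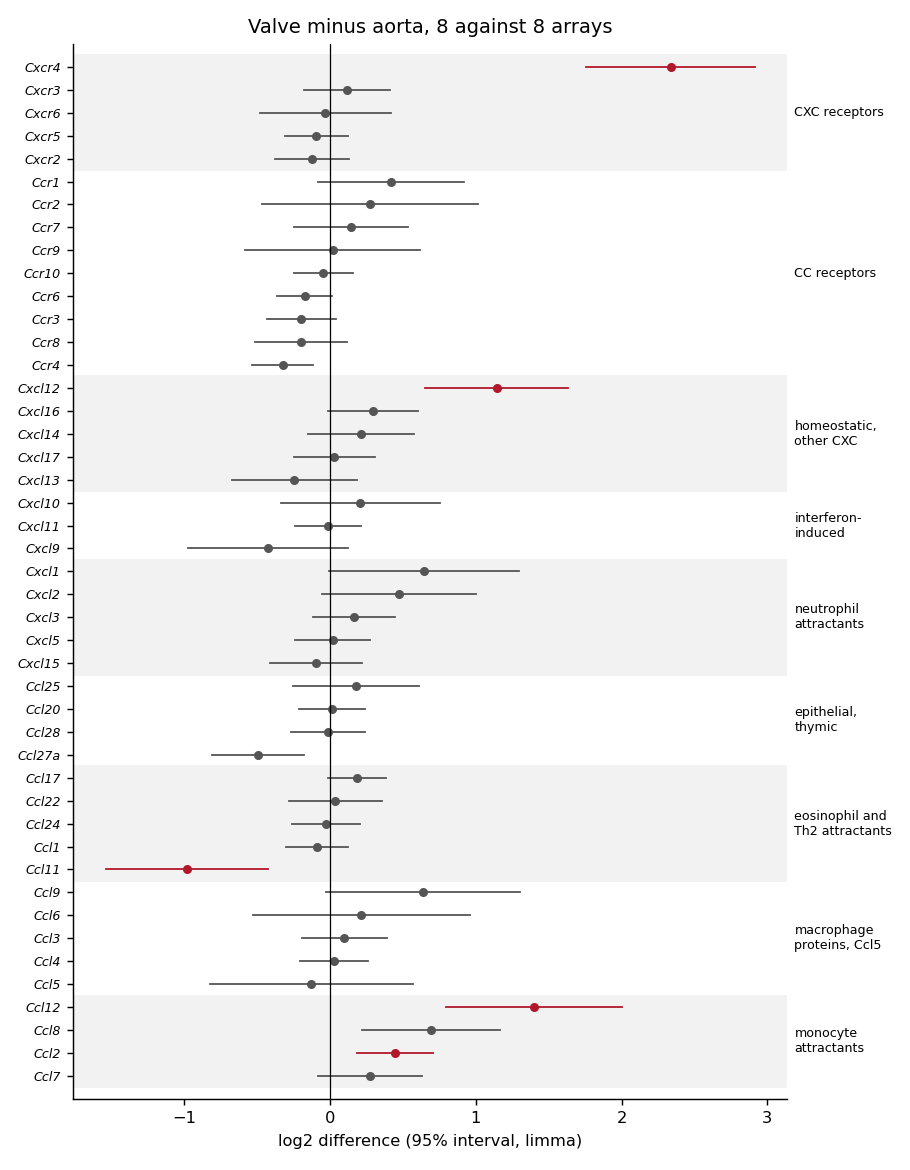
Valve minus aorta difference (log2, mean over the genotypes) with its 95% interval for each of the 45 genes, each by its probe set of highest SD, grouped by role; red marks an adjusted p under 0.05. Cxcr4 lies farthest from 0 at 2.34, and Ccl25 is not red because its probe set that passed is not the one shown.

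Ccl25 draws thymocytes and gut T cells through Ccr9. Its probe set 1458277_at read -0.25, 0.13, -0.32 and 0.10 in aorta Eln+/+, -0.23, -0.44, -0.08 and -0.24 in aorta Eln+/-, 0.09, 0.64, 0.56 and 0.90 in valve Eln+/+ and -0.20, 0.07, -0.22 and 0.22 in valve Eln+/-. Valve Eln+/+ held the 3 highest values, and the valve Eln+/- values overlapped those of the aorta. The rise of 0.42 ± 0.12 (SE) had an adjusted p of 0.0482 (limma), and of the fits without 1 array it passed only in those without aorta Eln+/+ replicate 2 or 4 or valve Eln+/+ replicate 1. The call also ended with the Xist and Y-linked covariate, with the macrophage covariate and without aorta Eln+/- replicates 2 and 4 together. The other Ccl25 probe set differed by 0.18 (adjusted p = 0.698, limma). Ccr9 had 5 probe sets with differences between -0.30 and 0.08, and none passed in the main fit. With the macrophage covariate 1427419_x_at, whose median ratio was below 1, passed as lower.

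The other epithelial ligands did not pass. Ccl27a differed by -0.49 (adjusted p = 0.0559, limma). In Eln+/- alone it differed by -0.74 (adjusted p = 0.05003, limma, just above the threshold), and 6 of 26 alternatives put it past the threshold there. Its probe set may also read near-identical Ccl27 copies. Ccl20 differed by 0.01, and the 3 probe sets of Ccl28 lay between -0.02 and 0.07. Their receptors, Ccr6 for Ccl20 and Ccr10 for Ccl27a and Ccl28, differed by -0.17 and -0.04.

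Among the macrophage inflammatory proteins and Ccl5, 6 of 7 probe sets were higher in the valve, with a median of 0.22, and none passed. Ccl9 came nearest, with 0.47 for 1448898_at (adjusted p = 0.0600, limma) and 0.64 for its other probe set (adjusted p = 0.267, limma). Ccl6 differed by 0.25 and 0.22, Ccl3 by 0.10, Ccl4 by 0.03 and Ccl5 by -0.13. Ccr1, a receptor of several of them, differed by 0.42 and 0.10. Without aorta Eln+/- replicate 2 both Ccl9 probe sets passed.

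The neutrophil attractants were Cxcl1, Cxcl2, Cxcl3 and Cxcl5, ligands of Cxcr2, and Cxcl15. They were higher in 7 of 8 probe sets, with a median of 0.28, and none passed. The 1 lower probe set, at -0.095, was of Cxcl15. The 3 probe sets of Cxcl1 differed by 0.39, 0.43 and 0.65, Cxcl2 by 0.47, Cxcl3 by 0.16 and Cxcl5 by 0.02. Cxcr2 differed by -0.12 (adjusted p = 0.645, limma). Of 10 neutrophil markers measured 3 were higher and 7 lower in the valve.

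The interferon-induced ligands of Cxcr3, which draw activated T cells, were lower in 4 of 5 probe sets, with a median of -0.02, and none passed. Cxcl10 differed by 0.21, Cxcl9 by -0.42 and -0.02 and Cxcl11 by -0.01 and -0.12, while Cxcr3 differed by 0.12. Aorta Eln+/+ replicate 4 held the highest Cxcl9 value, 1.38, and valve Eln+/- replicate 3 the highest Cxcl10 value, 1.48.

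The remaining CXC ligands were mostly higher in the valve, and with those of Cxcl12 they came to 8 of 10 probe sets, with a median of 0.24. Cxcl16, a membrane-bound ligand of Cxcr6, differed by 0.39 (adjusted p = 0.0662, limma) and 0.30, and Cxcr6 by -0.30 and -0.03. Cxcl14 differed by 0.21 and 0.05, and Cxcl17 by 0.03. Cxcl13, which draws B cells into follicles through Cxcr5, had -0.24 in both probe sets, and Cxcr5 had -0.09. Ccr7, the homing receptor of T cells and dendritic cells, differed by 0.15, and Ccr8 by -0.20. Of the receptors only Cxcr4 passed: 0 of 17 probe sets of CC receptors and 1 of 6 of CXC receptors did, against 8.04% of all probe sets.

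Each genotype taken alone gave 2 calls. In Eln+/+ these were Cxcr4 and Ccl12 (2.90% of the members, against 0.946% of all probe sets, 0.848% higher and 0.0977% lower). There the valve and aorta groups did not overlap in 9 members that were higher (13.0%, against 3.59% of all probe sets) and in 1 that was lower, Ccl11 (against 4.09%). The 9 were probe sets of Cxcr4, Ccl12, Ccr2, Ccl9, Cxcl16, Ccl8, Ccl2, Cxcl12 and Ccl6. Counted by the probe set of highest SD, 4 of 45 genes were apart as higher (8.89%), namely Cxcr4, Ccl12, Ccl8 and Ccl2. For Ccr2, Ccl9, Cxcl16, Cxcl12 and Ccl6 the probe set of highest SD overlapped. The Cxcl12 probe set that was apart is thus not the one called in the tissue comparison. In Eln+/- the calls were Cxcr4 and Cxcl12, against 5.81% of all probe sets (3.27% higher, 2.54% lower). The groups were apart there in 3 members that were higher, probe sets of Cxcl12, Ccl17 and Cxcl14 (against 5.62%), and in 1 that was lower, Ccr4 (against 5.42%). The differences between the genotypes in this respect are those of the interaction below, in which no member passed.

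Of 43 other genes of the chemokine system 41 were measured, among them other ligands, atypical receptors, G proteins, regulators and adhesion molecules. In the mean over the genotypes 6 of them passed as higher in the valve and 0 as lower, against the same 4.4% and 3.64%. They were Sele, endothelial E-selectin, with 1.45 (2.74-fold, adjusted p = 0.00673, limma), and Vcam1, the ligand of leukocyte integrins, with 1.23 (2.35-fold, adjusted p = 0.00272, limma). The others were Cx3cl1, the membrane-bound chemokine fractalkine, with 0.52 ± 0.09 (SE), Rgs16, which ends G protein signals, with 0.71, the G protein subunit Gng2 with 1.10 and the arrestin Arrb1 with 0.48. Ackr3, the scavenger receptor for Cxcl12, differed by -0.06 (adjusted p = 0.898, limma), and Cx3cr1, the receptor of Cx3cl1, by 0.67 (adjusted p = 0.224, limma). Of 17 cytokines and factors that induce chemokines 15 were measured, and 0 passed, by limma, in this comparison.

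Markers of several cell types differed between the tissues. All 14 cardiac muscle markers passed as higher in the valve, with a median of 4.04. So did 4 of 12 endothelial markers, while 1 passed as lower, 4 of 6 lymphatic endothelial, 5 of 9 fibroblast and 4 of 10 dendritic cell markers. Those of the dendritic list were H2-Aa, H2-Ab1, H2-Eb1 and Cd74. No other marker of that list passed in this comparison, Flt3, Zbtb46 and Xcr1 among them, and 3 of the 10 were lower. Of 10 smooth muscle markers 7 passed as lower and 1, Des, as higher, and all 7 adipocyte markers were lower, 1 of them past the threshold. All 15 T cell and thymocyte markers were lower in the valve, of which Lat passed, and all 7 mast cell markers were higher, of which Mcpt4 passed. Mmp9 of the neutrophil list passed as lower. The array means of the endothelial list lay between -1.02 and 0.19 in the aorta and between -0.19 and 0.61 in the valve. Those of the cardiac list lay between -4.00 and -0.95 in the aorta and between 0.54 and 2.28 in the valve. Of these lists only the macrophage mean was used as a covariate, and most of its markers were themselves higher in the valve. The part of any of these cell types in the tissue differences of the chemokine genes was not tested.

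The second question was whether 1 inactive elastin allele changes the chemokine system. No member passed in the aorta, in the valve, in the mean of both or in the interaction, and in all 4 comparisons the share of all probe sets that passed was 0%. Eln, the gene with the inactive allele, thus did not pass either, and the lack of calls does not show that the chemokine genes were unchanged. At an unadjusted p under 0.05 there were 3 members in the aorta (4.35%, against 5.51% of all probe sets), 4 in the valve (5.80%, against 8.60%), 3 in the mean (4.35%, against 6.31%) and 6 in the interaction (8.70%, against 7.72%). The smallest adjusted p of a member was 0.867, 0.423, 0.768 and 0.619 in these 4 comparisons (limma). With the difference of Xist and Y-linked signal as a covariate the counts were 0 too. No probe set had passed without it and this signal overlaps with the genotype, so these counts do not tell them apart. The part of this signal in the genotype differences below was not told apart either.

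In the aorta Cxcr4 had the lowest p. The values given above averaged -2.43 with an SD of 0.755 over the 4 Eln+/+ arrays and -1.04 with an SD of 0.817 over the 4 Eln+/- arrays, and the groups overlapped. The difference was 1.39 ± 0.38 (SE), with a 95% interval from 0.58 to 2.21 and an adjusted p of 0.867 (limma). Over the alternatives this difference ranged from 0.69, after quantile normalization, to 1.68. In the valve the means were 0.76 ± 0.299 and 0.44 ± 0.349 (SD, n = 4 each). The interaction, valve effect minus aorta effect, was -1.71 ± 0.54 (SE; adjusted p = 0.619, limma) and was as small as -1.05 after quantile normalization.

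Ccl12 was next, with 0.99 in the aorta (adjusted p = 0.885, limma), and its interaction was -1.24 (adjusted p = 0.644, limma). Ccl9 (1448898_at) differed by 0.50 in the aorta and Ccr9 (1427419_x_at) by 0.51, while Ccl24 differed by -0.31 and Cxcl14 (1418456_a_at) by -0.47. These values moved when single arrays were left out. Without aorta Eln+/- replicate 2, Ccl9 differed by 0.27 and Ccr9 by 0.22. Cxcl14 differed by -0.18 without aorta Eln+/+ replicate 2, and Ccl24 by -0.20 without aorta Eln+/- replicate 1. The aorta groups were apart in 1 member that was higher in Eln+/-, Ccr2 (1421188_at, 0.68; against 1.39% of all probe sets), and in 1 that was lower, Ccr10 (-0.21; against 1.45%). Ccr2 read -0.42, -0.49, -1.11 and -0.61 in aorta Eln+/+ and -0.39, 0.97, -0.25 and -0.22 in aorta Eln+/-. Only replicate 2 stood clear of the Eln+/+ values, and the gap to the others was small. This probe set is not that of highest SD for Ccr2, and its median ratio was below 1.

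In the valve Ccl25 (1458277_at) had the lowest p, with -0.58 (adjusted p = 0.423, limma). It was followed by Ccl28 (1455577_at, 0.37), Cxcl5 (-0.39), Cxcl11 (1419697_at, -0.33), Ccl17 (0.28) and Ccl22 (0.39). The groups were apart for Ccl17, which was higher in Eln+/- (against 3% of all probe sets), and for Cxcl5 and Cxcl1 (1441855_x_at, -0.55), which were lower (against 2.04%). Cxcl5 and Cxcl11 (1419697_at) had median ratios below 1, and that of Cxcl5, 0.419, was the lowest of the members. Ccl17 read 0.03, -0.06, -0.0038 and -0.28 in valve Eln+/+ and 0.23, 0.10, 0.37 and 0.09 in valve Eln+/-. The lowest Eln+/- array thus lay just above the highest Eln+/+ array.

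Averaged over the tissues, Ccl25 (1458277_at) differed by -0.37, Ccl9 (1448898_at) by 0.38, Cxcr6 (1422812_at) by 0.29 and Cxcr4 by 0.54, and none passed. For Ccl25, Ccl9 and Cxcr6 these are not the probe sets of highest SD. Counted by those of highest SD, 0 of 45 genes had an unadjusted p under 0.05 (limma) in this comparison. The interaction was 0.47 for Ccl28 (1455577_at), 0.61 for Ccl3, 0.53 for Cxcr2 and -1.12 for Ccr2 (1421188_at). Each of the 41 other chemokine system genes measured and each of the 15 inducers stayed above an adjusted p of 0.05 in the genotype comparisons as well, since no probe set on the array passed.

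**Figure D3:**
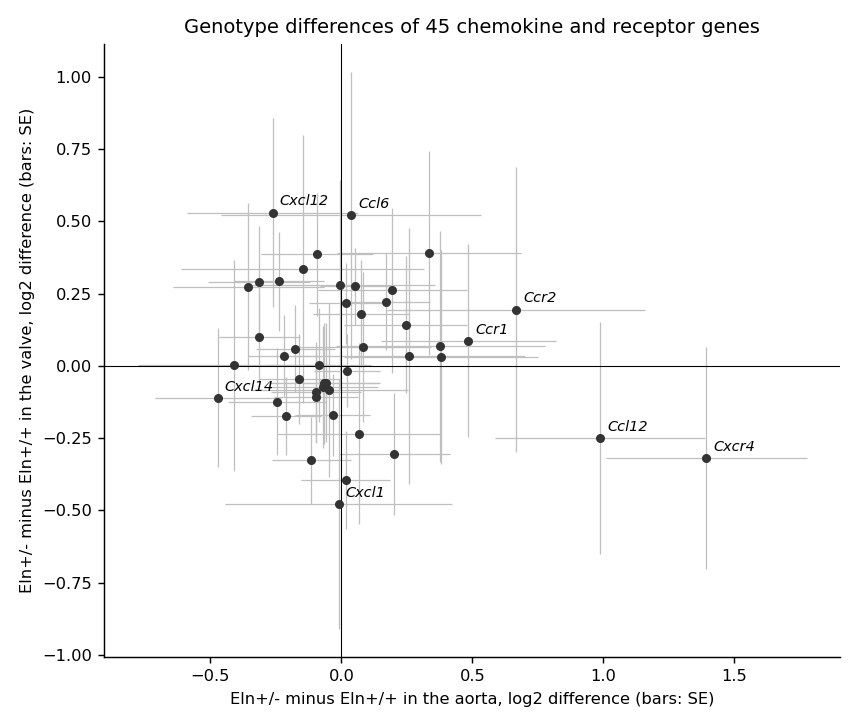
Genotype difference (Eln+/- minus Eln+/+, log2) in the aorta and in the valve for the 45 genes, each by its probe set of highest SD, with bars for the SE. Cxcr4 lies farthest out in the aorta at 1.39, and no point passed the threshold.

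Counted by probe set, high aorta values of the members lay more often on a single array than those of all probe sets did. Aorta Eln+/- replicate 2 held the highest of the 8 aorta values for 28 of the 69 members (40.6%), against 19.2% of all probe sets. It held the highest of all 16 arrays for 14 members (20.3%, against 11.7%). Counted by gene, each by its probe set of highest SD, the highest of all 16 arrays lay there for 5 of 45, near the share of all probe sets. Genes with several probe sets thus weigh on these shares, and the 8 aorta arrays were not counted by gene. Its values were 2.23 for Ccr2 (1421186_at), 2.08 for Ccl11, 1.54 and 1.26 for Ccl6, 1.40 for Ccl9 (1417936_at), 1.28 for Cxcl1 (1441855_x_at) and 1.20 for Cxcl13 (1448859_at). Ccr9, the receptor of developing T cells, read 1.17, 0.95, 0.76 and 0.64 there in 4 of its 5 probe sets, and -0.14 in the fifth. The thymocyte and macrophage marker means of this array are those given above, 1.52 and 0.98, and their part in these values was not tested.

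**Figure D4:**
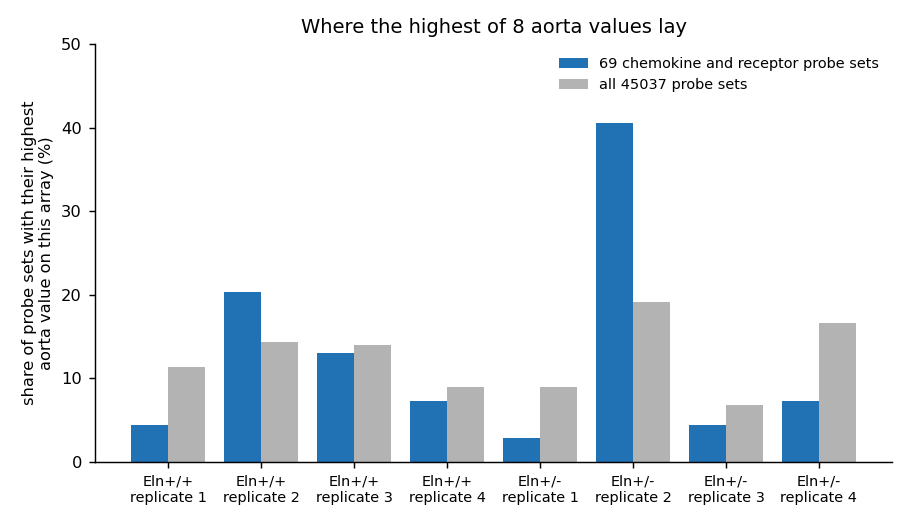
Share of probe sets (%) whose highest aorta value lay on each of the 8 aorta arrays, for the 69 members (blue) and for all 45037 probe sets (grey). Aorta Eln+/- replicate 2 holds 40.6% of the members and 19.2% of all probe sets.

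Without that array, 12 members passed in the tissue comparison, 10 higher and 2 lower, and 4750 of all probe sets passed, against 3620 with it. Gained were Ccl8, both probe sets of Ccl9, 2 of Cxcl1 and 1 of Cxcl16 as higher and Ccl27a as lower, and Ccl25 was lost.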

How the data were processed

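RNA of ascending aorta and aortic valve was measured on 16 arrays, 4 per group. The authors named RMA for the normalization, per the submitters' processing notes, and the genome build and annotation version are not given in the sources used here. The deposited values are a linear ratio of each probe set to its median over the 16 arrays. That division was read from the values: the median was 1, within 1e-06, in 39827 of 45101 probe sets, below 1 in 5274 and above 1 in 0. Ratios ran from 0.01 to 58.5.

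Leaving out 64 control probe sets, the other 45037 were put on the log2 scale. A limma 3.58.1 model (R 4.3.3, lmFit and eBayes) of the 4 group means was fitted to all arrays and all 45037 probe sets, with 12 residual and 3.60 prior degrees of freedom. The 7 comparisons used two-sided moderated tests, with p-values adjusted by Benjamini-Hochberg over these probe sets and a threshold of 0.05. The number of arrays limits the precision.

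All 69 members were matched to the RefSeq gene table (GRCm38.p6) by Entrez identifier. Genes named with values are those past the threshold in any comparison, the 6 of lowest p in each comparison, and ligands set beside their receptors. A gene with several probe sets is described by each of them or by that of highest SD. Where it is named for its low p, it is described by its probe set of lowest p. The other chemokine system genes, inducers and cell markers are each read by the probe set of highest SD. The members, lists, tests and rule were chosen with earlier results of these data known. Same-numbered arrays had deviations from their group means that correlated between -0.169 and 0.0711 over 24 pairs, so the numbers did not pair the samples. The 27 alternatives included array weights, other scalings, covariates, a replicate block and leaving out arrays.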

Additional observations from a re-analysis of the deposited data

Results flagged for a closer look

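In 12 of 276 groups of 4 arrays, 4.35%, 1 array lay far from the other 3 by Dixon's criterion, which chance meets in about 1 group in 20. Aorta Eln+/- replicate 2 accounted for 4 of them. There Ccr2 read 2.23 (1421186_at) against -0.32 to 0.10 on the other 3 arrays, and 0.969 (1421188_at) against -0.39 to -0.22. Ccl9 (1448898_at) read 0.767 against -0.18 to -0.09, and Ccl28 (1455577_at) was the lowest with -0.311 against -0.0096 to 0.03.

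In valve Eln+/- replicate 4 Ccl11 read 0.143 against -0.55 to -0.51 and Cxcl14 (1418456_a_at) read 0.446 against -0.0034 to 0.06. In replicate 2 of that group Ccl28 (1450218_at) read -0.792 against -1.22 to -1.17. In valve Eln+/+ replicate 3 Ccl6 (1417266_at) read 0.921 against 0.07 to 0.18 and Cxcl15 (1456428_at) read 0.845 against -0.05 to -0.0011. In valve Eln+/+ replicate 4 Cxcl5 read -0.482 against -1.24 to -1.12 and Cxcl1 (1457644_s_at) read 1.05 against 0.09 to 0.17. In valve Eln+/+ replicate 1 Cxcl3 read -0.352 against -1.16 to -1.08.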

How the results depend on the processing

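Over 42 gene results, 1097 values under other settings gave 1037 on the same side of the threshold, 51 that no longer passed, 9 that newly passed and 0 of opposite direction. The 51 all fell on results that had passed. In the tissue comparison Ccl25 lost its call in 16 of 26 alternatives, Ccl2 in 10, Ccl11 in 9 and Ccl12 in 1. Cxcr4 in Eln+/- lost it in 8 of 26 and Ccl12 in Eln+/+ in 7. The genotype and interaction results in the total lay far from the threshold, so the pooled count does not show how firm the calls were. Cxcr4 (1.96 to 2.63) and Cxcl12 (1.00 to 1.42) passed in the tissue comparison under every alternative run, and Ccl12 under each but the macrophage covariate. The number of members that passed there was 6, with 3620 of all probe sets. It was 11 with array weights, with 4390 of all, and 10 without aorta Eln+/- replicates 2 and 4 together, with 3427 of all. Leaving out 1 array gave 3 (without aorta Eln+/+ replicate 3, valve Eln+/+ replicate 4 or valve Eln+/- replicate 3) to 12 (without aorta Eln+/- replicate 2), while the number over all probe sets ran from 2704 to 4750. In Eln+/+ the 2 calls became 1 to 2. In Eln+/- the 2 calls became 1 in a fit of the groups compared alone and 1 to 4 when 1 array was left out: 4 without aorta Eln+/- replicate 2 and 1 without aorta Eln+/- replicate 3 or valve Eln+/- replicate 3 or 4. They became 3 with array weights, with log2(ratio + 0.1), without probe sets of median ratio below 1 and with the macrophage covariate. The genotype and interaction counts stayed at 0 under each setting run. With the replicate number as a block 6 members passed in the tissue comparison, 5 of them shared; Ccl11 was lost (adjusted p = 0.0505, limma) and a Ccl9 probe set gained. The cause of these shifts was not tested. The ratios carry no signal level, so the nearest to a filter on dim probe sets was to leave out those with a median ratio below 1, which kept all 6 calls. No absolute level can be given.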
